A study of Mus musculus with 26 samples.

Results

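Polyamine synthesis and breakdown genes were examined on 26 arrays of mouse cells and tumors that model Group3 medulloblastoma, a cerebellar tumor of children. The genes were chosen by name: every probe set whose only gene symbol was Odc1, Amd1, Srm, Sms, Oaz1, Oaz2, Azin1, Sat1, Smox or Paox was taken. This gave 11 of the 45037 probe sets tested. They read 7 of the 10 genes: 3 probe sets each for Sms and Azin1, and 1 each for Odc1, Srm, Oaz2, Sat1 and Smox. The expression of Amd1, Oaz1 and Paox was not analysed here.

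Polyamines (putrescine, spermidine and spermine) are small positively charged molecules that bind RNA and DNA and are needed for cell growth. Ornithine decarboxylase, made from Odc1, forms putrescine. Spermidine synthase (Srm) and spermine synthase (Sms) each add an aminopropyl group, which comes from S-adenosylmethionine through the enzyme encoded by Amd1. Antizymes (Oaz1, Oaz2) bind ornithine decarboxylase and send it to the proteasome, and antizyme inhibitor (Azin1) holds antizyme back. In breakdown, spermine oxidase (Smox) turns spermine back into spermidine, Sat1 acetylates spermidine and spermine, and Paox oxidises the acetylated products. Odc1 is a textbook target gene of the transcription factor MYC.

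All groups lacked Trp53 and Cdkn2c (genotype Trp53-/-, Cdkn2c-/-) and were on the C57BL/6 strain. Trp53 Cdkn2c neurospheres (3 arrays) were floating cultures of granule neural progenitors, given as P7 in the design text. All other groups carried Myc in addition, as cultured Group3 neurospheres (7 arrays), Group3 tumors without drug (5), secondary Group3 tumors (3), or Group3 tumors after treatment. The treated tumors had received pemetrexed, an antifolate (2 arrays), gemcitabine, a nucleoside analogue (3), or the combination (3). The labels used here give no dose, no time after dosing, no age of the tumor-bearing mice, no account of how Myc was introduced, and no account of how a secondary tumor arose. Separate animals or cultures are not stated for the arrays of a group, and the p-values therefore measure only the spread between arrays, which may be technical.

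Array titles carried the letters dka (12 arrays) or mmm (14 arrays), whose meaning the labels do not give, and groups were compared only within a code. The dka arrays held the Trp53 Cdkn2c neurospheres, Group3 neurosphere replicates 1 to 3, tumor replicates 1 to 3 (called primary here) and the secondary tumors. The mmm arrays held Group3 neurosphere replicates 4 to 7, tumor replicates 4 and 5 (called untreated here) and all drug-treated tumors. The log2 values ran from 2.56 to 13.9 on the dka arrays, from -0.41 to 16.1 on 13 of the mmm arrays, and from 2.64 to 13.7 on mmm Group3 neurosphere replicate 7, which stood apart from its code. Probe by probe, the mean of the 3 dka Group3 neurosphere arrays and the mean of mmm replicates 4 to 6 differed by an SD of 0.13, against 0.38 expected from the spread within each code, so the neurosphere means under the codes were not independent of each other. Microglia and macrophage markers averaged 3.67 to 3.88 on the dka Group3 neurosphere arrays, with 0 of 10 genes above the array median on every array. On the Trp53 Cdkn2c neurosphere arrays, 7 of those 10 genes were above it, with means of 6.19 to 6.79, although the label names a culture. Otx2, a Group 3 medulloblastoma marker, read 3.36 to 3.46 on the dka Group3 neurospheres and 9.14 to 9.54 on the Trp53 Cdkn2c neurospheres, and it was chosen after its values were seen. Of the 6 markers of that list measured, 1 was called between these groups. The Myc probe set read 6.93 to 9.48 on arrays with the Myc genotype and 8.09 to 9.06 on those without it, so it did not separate the genotypes. Its paralog Mycn was read by 3 probe sets, which ran in opposite directions. The brightest read 12.38 to 15.35 with the Myc genotype and 4.46 to 4.82 without it, while the others read 4.31 to 6.12 and 3.42 to 4.24 with it and 11.42 to 11.48 and 7.33 to 7.60 without it, so Mycn has no single direction here. Whether these probe sets lie in introduced sequence was not examined. In whole tissue, fewer cells of a type and less RNA per cell cannot be told apart.

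The promoters of Odc1 and Sms are shown because both genes were higher, and that of Smox because it was lower, in dka tumors than in dka Group3 neurospheres. The windows are RefSeq sequence (build GRCm38.p6) from 250 bases before to 50 bases after a transcription start, 5′ to 3′ on the gene's strand. Capitals mark CACGTG, the E-box that MYC with its partner MAX binds best, or CACGCG, a weaker variant, searched on both strands, so that CGCGTG is CACGCG read from the other strand. The motifs cannot overlap each other. Of 32851 windows of this length, 7.15% held CACGTG and 9.27% held CACGCG. Such a window was found for 8 of the 10 genes, and Srm and Azin1 had none in the table. Odc1 is at chr12:17544623-17544922 (plus strand), the Sms windows at chrX:157492238-157492537 and chrX:157491319-157491618 (minus strand), and Smox at chr2:131491612-131491911 (plus strand).
Odc1: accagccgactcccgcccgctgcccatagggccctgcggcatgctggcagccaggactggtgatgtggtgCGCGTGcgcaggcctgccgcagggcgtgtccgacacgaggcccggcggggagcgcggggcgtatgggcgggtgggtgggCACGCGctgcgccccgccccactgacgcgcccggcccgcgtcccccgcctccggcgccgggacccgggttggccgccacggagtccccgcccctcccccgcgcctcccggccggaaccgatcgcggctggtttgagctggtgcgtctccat
Sms, first window: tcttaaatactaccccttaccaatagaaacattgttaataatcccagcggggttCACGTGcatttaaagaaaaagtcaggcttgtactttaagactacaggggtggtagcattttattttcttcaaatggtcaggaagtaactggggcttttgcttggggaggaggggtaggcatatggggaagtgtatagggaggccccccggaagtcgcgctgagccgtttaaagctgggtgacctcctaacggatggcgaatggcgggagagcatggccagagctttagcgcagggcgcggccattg
Sms, second window: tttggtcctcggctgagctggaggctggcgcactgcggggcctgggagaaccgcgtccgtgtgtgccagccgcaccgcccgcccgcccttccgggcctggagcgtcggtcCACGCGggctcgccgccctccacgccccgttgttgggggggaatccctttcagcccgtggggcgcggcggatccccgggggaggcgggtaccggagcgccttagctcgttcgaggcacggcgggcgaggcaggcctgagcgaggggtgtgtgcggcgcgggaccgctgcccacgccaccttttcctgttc
Smox: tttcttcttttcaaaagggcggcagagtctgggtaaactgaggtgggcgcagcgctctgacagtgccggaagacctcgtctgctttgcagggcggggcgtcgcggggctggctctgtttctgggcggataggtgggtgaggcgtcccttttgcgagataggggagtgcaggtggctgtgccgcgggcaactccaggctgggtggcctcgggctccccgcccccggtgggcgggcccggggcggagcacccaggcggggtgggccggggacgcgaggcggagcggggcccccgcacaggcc
Odc1 held CACGCG at positions 71 and 150 of its window, counted from the 5′ end. The first Sms window held CACGTG at position 55 and the second CACGCG at position 111. The Oaz1 window held CACGCG at position 39. The Smox, Sat1, Oaz2, Amd1 and Paox windows held neither set of letters. These are matches of letters only.

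Odc1, the first enzyme of the pathway, had a wide gap between cultures and tumors (probe set 1427364_PM_a_at). Under the dka code it read 8.28, 8.24 and 8.57 on the Group3 neurospheres. The Trp53 Cdkn2c neurospheres read 9.30, 8.96 and 9.32. Primary tumors read 10.02, 10.27 and 9.86, and secondary tumors 10.06, 10.04 and 9.86. The Group3 neurospheres were thus lowest, the Trp53 Cdkn2c neurospheres between, and the tumor groups highest, and only the 2 tumor groups overlapped. Under the mmm code the neurospheres read 8.06, 8.61, 8.30 and 8.49, and the untreated tumors 9.95 and 9.95. The 8 drug-treated arrays read 9.67 to 10.32, all above every neurosphere array of that code.

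**Figure D1:**
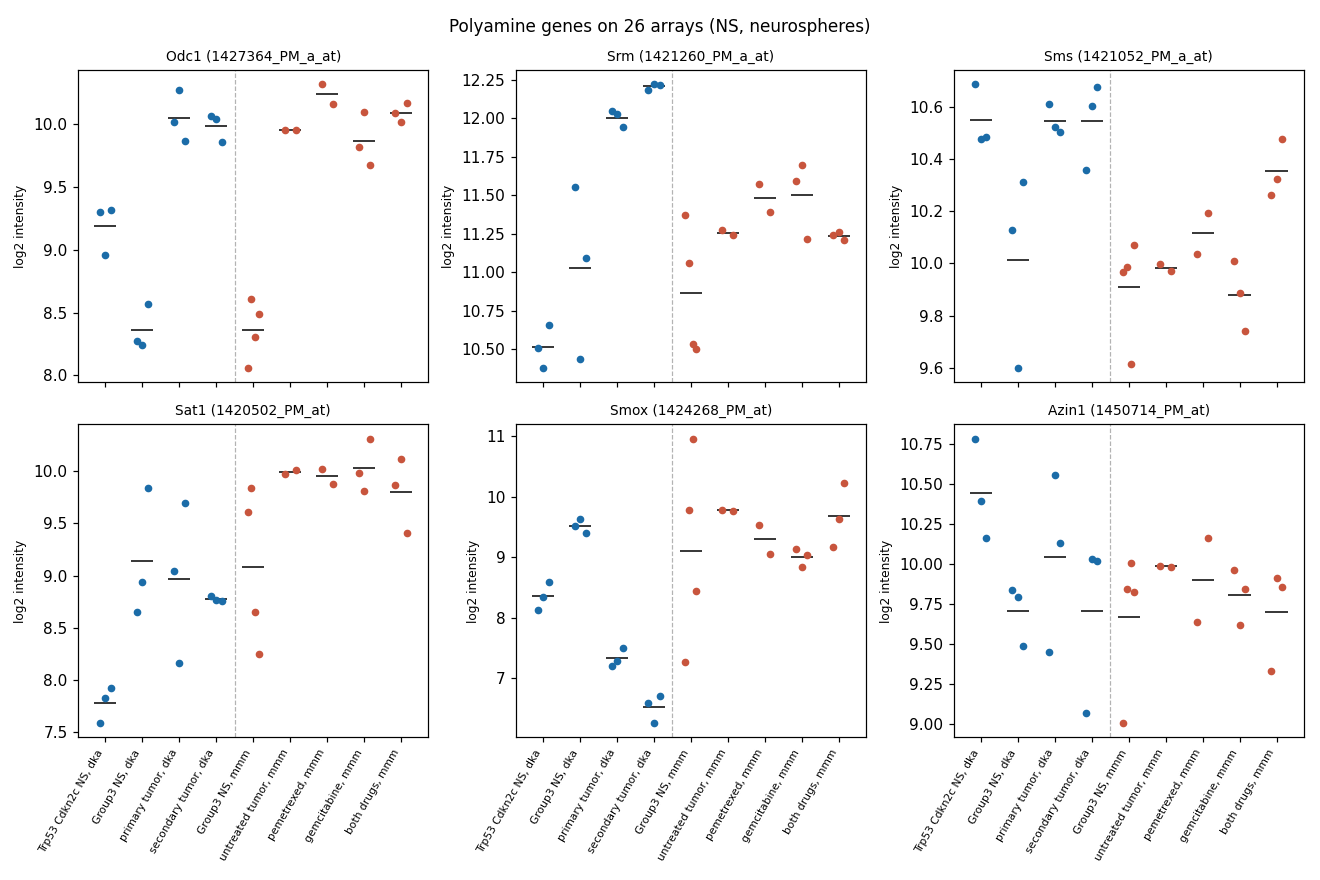
Deposited log2 intensity (vertical axes, a separate scale for each gene) of 6 polyamine probe sets on the 26 arrays by group (horizontal axis). Points are arrays, bars are group means, blue is code dka and red is code mmm; Within each code every tumor array lies above the Group3 neurosphere arrays in Odc1 (8.24 to 8.57 in dka and 8.06 to 8.61 in mmm neurospheres).

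Between the neurosphere groups, the Myc genotype went with lower Odc1 and higher Sat1. Of the 11 probe sets, 3 passed an adjusted p of 0.05 (limma, Benjamini-Hochberg over all 45037 probe sets), a share to be read against 20.1% of all probe sets (9.77% higher and 10.4% lower). Odc1 was 8.36 ± 0.18 in Group3 and 9.19 ± 0.20 in Trp53 Cdkn2c neurospheres (SD, n = 3 each), and so fell by 0.83 on the log2 scale (SE 0.15, 1.78-fold, adjusted p = 0.00054). Leaving out any 1 array of either group kept the difference between -0.95 and -0.77. The groups also differed in their markers. All 9 measured granule progenitor markers, 7 of 10 microglia, 3 of 7 neuron and 2 of 10 endothelial markers were lower in Group3 neurospheres. So were 1 of 7 pericyte and matrix, 1 of 2 red blood cell and 1 of 6 Group 3 medulloblastoma markers, while 3 of 7 astrocyte markers were higher. Their part in the results between these groups was not tested.

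Spermine synthase moved the same way as Odc1. Sms 1421052_PM_a_at read 10.69, 10.48 and 10.49 on the Trp53 Cdkn2c and 10.13, 9.60 and 10.31 on the Group3 neurospheres, with no overlap. It fell by 0.54 (SE 0.15, adjusted p = 0.0171), a call that was lost without Trp53 Cdkn2c replicate 1 (adjusted p = 0.0792), without Group3 replicate 2 (0.125) or with only dka arrays in the fit (0.0563). The other Sms probe sets differed by -0.59 and -0.44 with overlapping groups, and neither passed. Srm differed by 0.51 in the other direction (adjusted p = 0.124), and it passed without Group3 replicate 2 (difference 0.81, adjusted p = 0.0108).

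Among the breakdown genes, Sat1 (1420502_PM_at) read 7.59, 7.83 and 7.92 on the Trp53 Cdkn2c and 8.65, 8.94 and 9.84 on the Group3 neurospheres. The groups did not overlap, and Group3 replicate 3 was the highest. Sat1 rose by 1.36 (SE 0.38, 2.57-fold, adjusted p = 0.0148). Without Group3 replicate 3 the difference was 1.01 (adjusted p = 0.0999) and without Trp53 Cdkn2c replicate 1 it was 1.27 (0.0577). Smox (1424268_PM_at) read 8.14, 8.35 and 8.59 against 9.52, 9.63 and 9.40, also without overlap, a difference of 1.16 (SE 0.55) that did not pass (adjusted p = 0.158). The fit pools the spread of all groups. The mmm Group3 neurospheres had an SD of 1.60 for Smox, against 0.12 in the dka ones, and with only dka arrays in the fit the same difference passed (SE 0.16, adjusted p = 0.00063). The regulators Oaz2 and Azin1 had differences of -0.60 (Oaz2, adjusted p = 0.0545) and of -0.46, -0.74 and 0.03 (Azin1), with none called. Oaz2 passed without Group3 replicate 2 (difference -0.75, adjusted p = 0.0323) and without dim probe sets (0.0437). The median over the 11 probe sets was -0.46, beside 0.04 over all probe sets.

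Primary tumors had more RNA of all 3 synthesis enzymes measured, and less Smox, than Group3 neurospheres under the dka code. Of the 11 probe sets, 5 rose and 1 fell, beside 13.8% called in either direction over all probe sets (6.53% higher and 7.28% lower). The member median was 0.34, beside 0.01 for all probe sets. Odc1 rose by 1.69 (SE 0.15, 3.22-fold, adjusted p = 9.04e-07). Srm (1421260_PM_a_at) read 11.55, 10.44 and 11.09 on the neurospheres and 12.04, 12.02 and 11.94 on the primary tumors. The tumor arrays lay close together above widely spread neurosphere arrays, and Srm rose by 0.98 (SE 0.23, 1.97-fold, adjusted p = 0.00598). Leaving out any 1 array of these groups kept the Odc1 and Srm calls, with Srm between 0.68 and 1.24 (highest adjusted p = 0.046).

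All 3 Sms probe sets rose in primary tumors, which read 10.61, 10.52 and 10.50 for 1421052_PM_a_at against 10.13, 9.60 and 10.31 in the neurospheres. The differences were 0.53 (SE 0.15, adjusted p = 0.0257) for 1421052_PM_a_at, 1.14 (SE 0.34, 0.0318) for 1428699_PM_at and 0.75 (SE 0.22, 0.0275) for 1434190_PM_at. For each of them the groups did not overlap, but the calls rested on few arrays. All 3 were lost without Group3 neurosphere replicate 2 (adjusted p = 0.175, 0.145 and 0.161) and without tumor replicate 2 (0.0575, 0.132 and 0.116), in the order given. Without tumor replicate 1, 1421052_PM_a_at (0.0829) and 1434190_PM_at (0.0682) were lost. Without tumor replicate 3, 1428699_PM_at was lost (0.0870), and without neurosphere replicate 3, 1428699_PM_at (0.0870) and 1434190_PM_at (0.0733). With only dka arrays, 1421052_PM_a_at (0.0753) and 1434190_PM_at (0.0588) did not pass.

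Smox went the other way. It read 9.52, 9.63 and 9.40 on the dka Group3 neurospheres and 7.21, 7.29 and 7.51 on the primary tumors, so that the groups were well apart. It fell by 2.18 (SE 0.55, 4.54-fold, adjusted p = 0.0107), and by 2.12 to 2.27 without any 1 array of these groups. Sat1 read 9.05, 8.16 and 9.70 on the tumors and overlapped the neurospheres (difference -0.17, 95% interval -0.97 to 0.63). The regulators also overlapped: Oaz2 differed by -0.19 and the Azin1 probe sets by 0.06, -0.16 and 0.34, none called.

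Markers of other cell types moved in the same comparison. In primary tumors 7 of 10 microglia, 8 of 10 endothelial, 6 of 7 pericyte and matrix, and 5 of 7 neuron markers were higher than in Group3 neurospheres, while 3 of 7 astrocyte markers were lower. Of the other lists, 1 of 6 oligodendrocyte, 1 of 2 red blood cell, 2 of 9 granule progenitor and 2 of 6 Group 3 medulloblastoma markers were higher. Microglia markers averaged 6.27 to 6.83 on the primary tumor arrays. Their part in the rise of Odc1, Srm and Sms and the fall of Smox was not tested. 

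Against Trp53 Cdkn2c neurospheres, Odc1, Srm and Sat1 were higher in primary tumors. Of the 11 probe sets, 3 rose and 1 fell, beside 14.6% of all probe sets called (6.52% higher and 8.06% lower). The member median was -0.01, beside 0.04 for all. Srm read 10.51, 10.38 and 10.66 on the Trp53 Cdkn2c neurospheres and was 1.49 higher in the tumors (SE 0.23, 2.81-fold, adjusted p = 0.00015). Odc1 was 0.86 higher (SE 0.15, 1.81-fold, adjusted p = 0.00068). Both calls held without any 1 array. Sms 1421052_PM_a_at was level, with a difference of -0.01 (95% interval -0.33 to 0.32). This comparison shares the primary tumor arrays with the previous one. In it, limma called 0 of 10 microglia markers (median difference -0.03), while 3 of 10 endothelial, 3 of 7 pericyte and matrix and 1 of 6 Group 3 medulloblastoma markers were higher. Of the others, 7 of 9 granule progenitor, 1 of 7 astrocyte, 1 of 2 red blood cell and 1 of 6 Group 3 markers were lower, and their part was not tested.

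Sat1 and Oaz2 made up the other calls there. Sat1 was 1.19 higher in primary tumors than in Trp53 Cdkn2c neurospheres (SE 0.38, adjusted p = 0.0418). The Sat1 call was lost without tumor replicate 1 (0.106) or 3 (0.202), without Trp53 Cdkn2c replicate 1 (0.128), 2 (0.0915) or 3 (0.0711), and with only dka arrays (0.0568). Oaz2 (1442541_PM_at) read 6.32 to 6.60 on the neurospheres and 5.25 to 5.98 on the tumors, and fell by 0.79 (SE 0.21, adjusted p = 0.0159). That call was lost without tumor replicate 3 (0.0960) or Trp53 Cdkn2c replicate 3 (0.0619), and after quantile normalization (0.0921). Smox was 1.02 lower without overlap, and did not pass (adjusted p = 0.246) except with only dka arrays in the fit (0.00237).

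**Figure D2:**
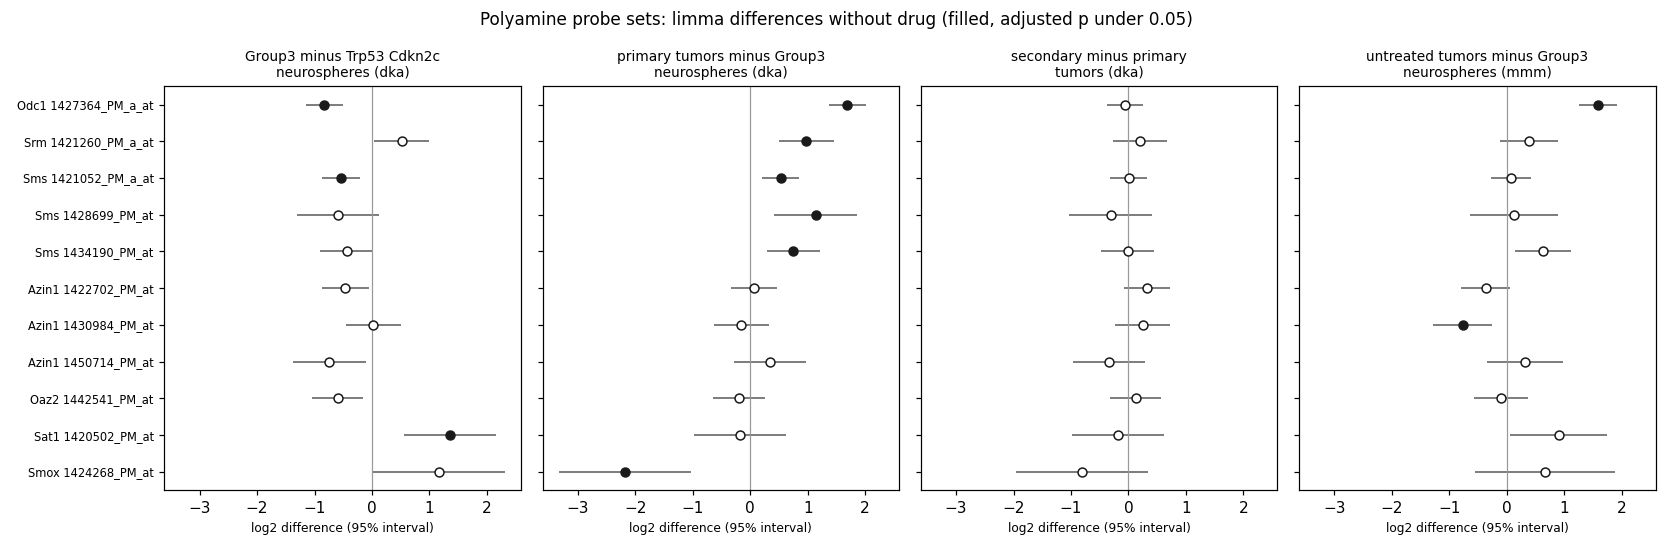
limma log2 differences (horizontal axes) with 95% intervals for the 11 polyamine probe sets (vertical axis) in 4 comparisons without drug; filled points passed an adjusted p of 0.05. Odc1 lies left of 0 between the neurosphere groups and right of 0 in both comparisons of tumors with Group3 neurospheres, and Smox lies at -2.18 under dka and 0.67 under mmm. The comparisons of tumors with Group3 neurospheres are not independent, because the neurosphere means under the codes were not.

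Secondary tumors read 9.86 to 10.06 for Odc1, beside 9.86 to 10.27 in primary tumors. Between these groups, 0 of 11 probe sets passed (limma), and 0 had an unadjusted p under 0.05, beside 2.28% of all probe sets called. The medians were -0.02 over the members and -0.00 over all probe sets. Odc1 differed by -0.06, with a 95% interval of -0.38 to 0.26. Srm read 12.18, 12.22 and 12.22 and Smox 6.60, 6.26 and 6.71 on the secondary tumors, neither overlapping the primary ones. Smox was 0.81 lower (SE 0.55, adjusted p = 0.565), and this passed with only dka arrays in the fit (SE 0.16, adjusted p = 0.0343). Sat1 read 8.81, 8.77 and 8.76, inside the range of the primary tumors.

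Against Group3 neurospheres, secondary tumors had 4 member probe sets higher and 1 lower, beside 21.9% of all probe sets called (11.1% higher and 10.7% lower). The medians were 0.38 over the members and 0.03 over all. Odc1 was 1.63 higher (SE 0.15, adjusted p = 6.62e-07) and Srm 1.18 higher (SE 0.23, adjusted p = 0.0008). Smox fell by 2.99 (SE 0.55, 7.97-fold, adjusted p = 0.00055). These 3 calls held without any 1 array. Sms 1421052_PM_a_at rose by 0.53 (adjusted p = 0.0169) and 1434190_PM_at by 0.73 (0.0209). The first was lost without Group3 neurosphere replicate 2 (0.128) or secondary tumor replicate 2 (0.0548) or 3 (0.0678) and with only dka arrays (0.0555), the second without neurosphere replicate 2 (0.129) or 3 (0.0560) or secondary tumor replicate 1 (0.110). Sms 1428699_PM_at was 0.82 higher (0.0966) and passed after quantile normalization (0.0455). Microglia markers averaged 6.38 to 7.85 on these tumors, with 9 of 10 higher than in the neurospheres. So were 9 of 10 endothelial, 3 of 7 neuron, 2 of 7 pericyte and matrix, 2 of 9 granule progenitor, 1 of 2 red blood cell and 1 of 6 Group 3 markers, while 3 of 7 astrocyte and 1 of 9 granule progenitor markers were lower, and their part was not tested.

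Under the mmm code, Odc1 was the member that rose in untreated tumors. Of the 11 probe sets, 1 rose and 1 fell, beside 17.5% of all probe sets called (8.1% higher and 9.35% lower), with medians of 0.32 over the members and -0.06 over all. Odc1 was 9.95 ± 0.00 in the tumors (SD, n = 2) and 8.36 ± 0.24 in the neurospheres (n = 4), a rise of 1.59 (SE 0.16, 3.01-fold, adjusted p = 3.1e-06) that stayed between 1.49 and 1.67 without any 1 array. The neurosphere means under the codes were not independent, so this rise is no independent repeat of the dka rise. Every one of the 10 microglia markers rose in the same comparison, to array means of 8.46 to 8.62. So did 8 of 10 endothelial, 6 of 7 neuron, 5 of 6 oligodendrocyte, 4 of 6 Group 3, 3 of 7 pericyte and matrix, 2 of 2 red blood cell and 2 of 9 granule progenitor markers, while 3 of 7 astrocyte markers rose and 1 fell. Their part was not tested. The probe set that fell was Azin1 1430984_PM_at, which was below the array median on all 26 arrays. It fell by 0.77 (adjusted p = 0.0332), and the call was lost without tumor replicate 4 (0.0981) or 5 (0.276), neurosphere replicate 6 (0.0517) or 7 (0.0861), with only mmm arrays (0.0936) and after quantile normalization (0.0594). The brighter Azin1 probe sets differed by -0.37 and 0.32, neither called, and all 10 other member probe sets were above the array median on every array.

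The other synthesis genes had smaller differences there. Srm read 11.37, 11.06, 10.53 and 10.50 on the mmm neurospheres and 11.28 and 11.24 on the untreated tumors, which lie inside that range (difference 0.39, 95% interval -0.11 to 0.89). Sms 1434190_PM_at was 0.64 higher without overlap (adjusted p = 0.0662), while 1421052_PM_a_at and 1428699_PM_at differed by 0.07 and 0.13 with overlap. Sat1 read 9.61, 9.84, 8.65 and 8.25 on the neurospheres and 9.97 and 10.01 on the tumors, so that the tumors were highest (difference 0.90, adjusted p = 0.137). Smox read 7.27, 9.78, 10.96 and 8.44 on the neurospheres and 9.79 and 9.77 on the tumors. These neurospheres ran from 7.27 to 10.96, much of the range of Smox over the 26 arrays (6.26 to 10.96). The untreated tumors lay inside the range of these neurospheres.

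Whether the codes differed in the change from Group3 neurospheres to tumors was tested directly, and 1 of 11 probe sets passed, beside 6.35% of all probe sets (2.99% higher and 3.36% lower under mmm). The medians were -0.11 over the members and -0.06 over all. For Smox the difference was 0.67 under mmm and -2.18 under dka, and these differed by 2.85 (SE 0.80, 95% interval 1.18 to 4.52, adjusted p = 0.0397). The call was lost when any 1 of the 5 tumor arrays was left out (0.0688, 0.0728, 0.0519, 0.136 and 0.134 for replicates 1 to 5). It was also lost without 1 of the neurosphere arrays numbered 1 (0.0654), 2 (0.0780), 3 (0.0580) and 7 (0.0751), and held without neurosphere replicates 4, 5 or 6. The size ran from 2.24 to 3.47 over these 12 fits. Odc1 differed between the codes by -0.10 (95% interval -0.56 to 0.37), Srm by -0.59 (-1.27 to 0.10) and Sat1 by 1.08 (-0.09 to 2.24), none called. The tumors read 7.21 to 7.51 under dka and 9.77 to 9.79 under mmm, and the neurosphere means were 9.52 under dka and 9.11 under mmm. This test treats the 7 neurosphere arrays as independent between the codes, which the near coincidence of their means over all probe sets goes against, so its SE and p are uncertain. The log2 values also ran over unlike ranges, 2.56 to 13.9 on dka arrays and -0.41 to 16.1 on 13 mmm arrays. Differences and levels under the codes may thus not share a scale. The codes also differed in the markers' change from neurospheres to tumors, with 6 of 10 microglia, 1 of 7 astrocyte, 1 of 7 neuron and 1 of 2 red blood cell markers called higher under mmm and 1 of 9 granule progenitor markers lower. Microglia means were 6.27 to 6.83 on the dka and 8.46 to 8.62 on the mmm tumors, and code and these differences cannot be told apart.

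**Figure D3:**
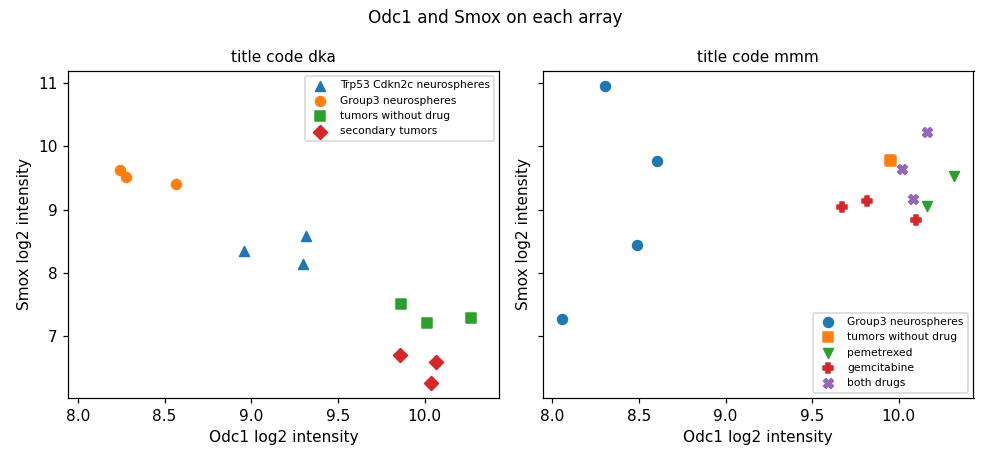
Odc1 (horizontal) against Smox (vertical), both as log2 intensity, on each array, with dka at left and mmm at right; points are arrays and shapes are groups. Under dka the Group3 neurospheres are at high Smox and low Odc1 and the tumors at low Smox and high Odc1, while under mmm the neurospheres spread from 7.27 to 10.96 in Smox and the tumors stay between 8.84 and 10.23.

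Neither drug, alone or together, changed a polyamine gene past the threshold. Against untreated tumors, 0 of 11 probe sets passed with pemetrexed (0.00444% of all probe sets did), 0 with gemcitabine (0.00888%) and 0 with both (0.0688%), in limma. Unadjusted p was under 0.05 for 0, 0 and 1 of them. The member medians were 0.04, -0.09 and -0.02, beside 0.05, 0.06 and 0.03 over all probe sets. In simulated arrays of this layout, 67 probe sets were changed 2-fold in each comparison. Of these, 28.4% were found with pemetrexed, 47.8% with gemcitabine and 23.9% with both, so that moderate changes could be missed. The layouts with gemcitabine and with both drugs are the same, 3 arrays against 2. The gap between their shares thus comes from the random draw and is no difference in power. The 3 comparisons share the 2 untreated arrays.

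Odc1 read 10.32 and 10.16 with pemetrexed, 9.82, 10.10 and 9.67 with gemcitabine, and 10.08, 10.02 and 10.16 with both, beside 9.95 and 9.95 untreated. The differences were 0.29 (95% interval -0.10 to 0.68), -0.09 (-0.45 to 0.27) and 0.14 (-0.22 to 0.49). These intervals leave out a 2-fold change of Odc1 in either direction. Srm differed by 0.22, 0.25 and -0.02, with no interval reaching beyond 0.80. Sat1 read 9.41 to 10.31 over the 8 treated arrays, around the untreated 9.97 and 10.01.

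Smox had the widest intervals. It read 9.54 and 9.06 with pemetrexed, 9.14, 8.84 and 9.04 with gemcitabine and 9.17, 9.64 and 10.23 with both. The single-drug arrays were all below the untreated 9.79 and 9.77, and those with both drugs lay on either side. The differences were -0.48 (-1.89 to 0.92), -0.77 (-2.06 to 0.51) and -0.10 (-1.38 to 1.18). Changes beyond 2-fold in Smox are thus inside the intervals. The fit pools the spread of all groups, including the mmm Group3 neurospheres (SD 1.60), which are in none of these comparisons. The SDs were 0.01 in untreated tumors, 0.34 with pemetrexed, 0.15 with gemcitabine and 0.53 with both.

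Sms 1421052_PM_a_at was the member with the unadjusted p under 0.05. It read 10.26, 10.32 and 10.48 with both drugs, above both untreated arrays (mean 9.98) and the gemcitabine arrays at 10.01, 9.88 and 9.74. The difference was 0.37 from untreated (SE 0.17, adjusted p = 0.655) and 0.48 from gemcitabine (SE 0.15, adjusted p = 0.725). The other Sms probe sets differed from untreated by -0.05 and -0.23. Between both drugs and gemcitabine alone 0 of 11 passed (0% of all probe sets did, and 1 member had an unadjusted p under 0.05), and between both drugs and pemetrexed 0 of 11 passed (0.00666% of all, 0 unadjusted). The medians were 0.01 and -0.03 over the members, beside -0.03 and -0.01 over all. Azin1 and Oaz2 differed from untreated by -0.29 to 0.41 over the 3 treatments, with every interval holding 0.

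**Figure D4:**
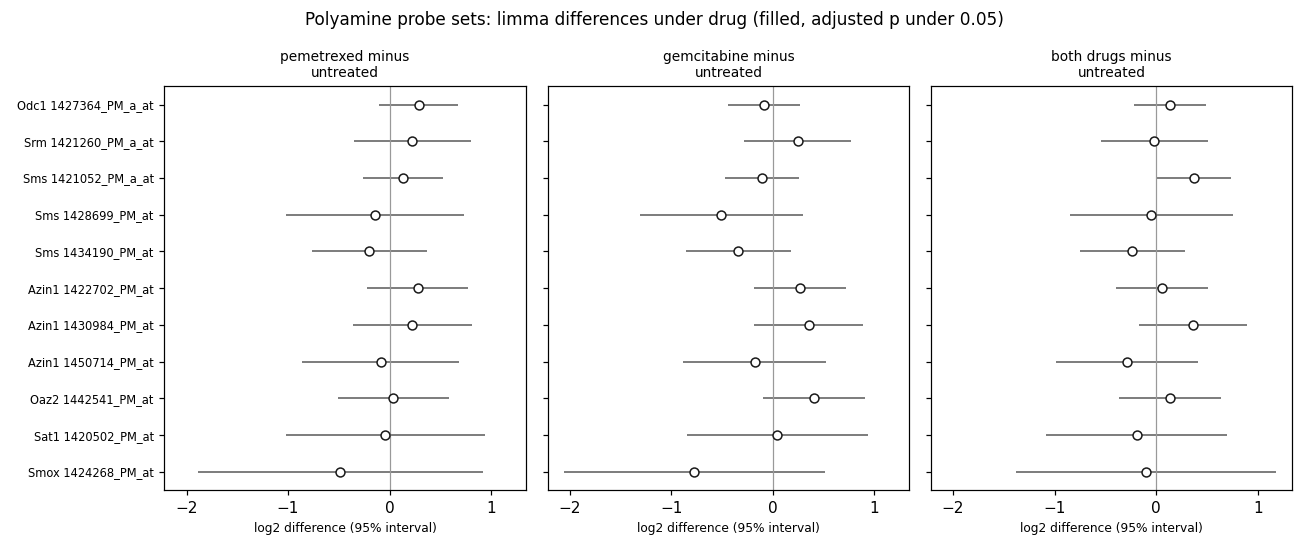
limma log2 differences from untreated tumors (horizontal axes) with 95% intervals for the 11 polyamine probe sets (vertical axis) under each treatment; no point is filled because no adjusted p was under 0.05. Intervals for Odc1 stay within -0.45 to 0.68, and those for Smox reach -2.06 and 1.18.

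Around these enzymes, 41 other genes of the pathway were measured, in lists of supply, methyl donor salvage, other modifying enzymes, hypusine formation and transport, with the brightest probe set of each. The share called is given beside the same share over the brightest probe sets of all 17097 genes. Of the 41, 5 rose and 3 fell in Group3 against Trp53 Cdkn2c neurospheres, beside 22.2% of all genes called, so the count is near the background. Oat, which links ornithine to proline, rose by 1.84 (adjusted p = 0.00026), and Asl, which makes arginine, by 1.53 (0.00363). Mtap, which clears the methylthioadenosine left over from polyamine synthesis, rose by 1.36 (0.00139), and Mtrr, which keeps methionine synthase active, by 1.43 (0.0116). Sat2, a relative of Sat1, fell by 1.77 (0.00183) and Slc7a1, an arginine and ornithine transporter, by 0.70 (0.00576).

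In primary tumors against Group3 neurospheres, 6 rose and 2 fell, beside 17.3% of all genes called (8.21% higher and 9.12% lower). Slc7a1 rose by 0.92 (adjusted p = 0.00103) and Dohh, the last enzyme of hypusine formation from spermidine, by 1.02 (0.0171). Aldh18a1, of proline and ornithine synthesis, rose by 0.96 (0.0476) and Enoph1, of methylthioadenosine salvage, by 0.87 (0.00237). Apip of the same salvage route fell by 1.20 (0.00019) and Oat by 1.05 (0.0281). Secondary tumors had 6 higher and 4 lower, a share near the 24.2% of all genes called. Among these were Dohh up by 1.08 (0.0077), Adi1 up by 1.22 (0.00166), Slc7a1 up by 0.71 (0.00498), Apip down by 1.21 (9.63e-05) and Oat down by 1.19 (0.00898). Slc18b1, a vesicular polyamine transporter, fell by 3.32 (0.00114), and it was the 1 gene of the 41 called between secondary and primary tumors (-2.81, adjusted p = 0.0259), where 1.37% of all genes were called. Its mean on the secondary tumors was 3.66, below the array medians of 4.65 to 4.80, so the sizes of its differences are uncertain.

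Primary tumors against Trp53 Cdkn2c neurospheres had 10 higher and 1 lower, beside 15.4% of all genes called (9.04% higher and 6.39% lower). Of the 10 that rose, 7 were among the 12 methionine cycle and salvage genes. Asl rose by 2.29 (adjusted p = 0.00017), Mtrr by 1.41 (0.0169), Mtap by 1.35 (0.00224) and Dhps, the first enzyme of hypusine formation, by 1.21 (0.00218). Sat2 fell by 1.89 (0.00166).

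Untreated mmm tumors had 1 of the 41 higher and 7 lower than Group3 neurospheres, beside 21% of all genes called (9.99% higher and 11% lower). Oat (-1.07, adjusted p = 0.0303) and Apip (-0.79, 0.00798) were lower. Aldh18a1 was lower here (-1.38, 0.00662) and higher under dka, and the codes differed by -2.34 (0.00756). Slc7a1 also differed between the codes, by -1.39 (0.00454), as did Mtr by -1.49 (0.0114) and Slc3a2, a partner subunit of amino acid transporters, by -0.97 (0.0487). In that test 0 of the 41 were called higher and 4 lower under mmm, beside 7.82% of all genes called (3.63% higher and 4.19% lower). Its p-values are uncertain because the neurosphere means under the codes were not independent. The range of log2 values also differed between the codes, so the sizes may not share a scale. Sat2 (-1.71, 0.00519) and Oaz3, an antizyme (-1.68, 0.00143), fell, while Slc47a1, a cation exporter, rose by 1.03 (0.0289) with overlapping groups. Oaz3 was at a mean of 3.86 in the tumors and Slc47a1 at 4.59 in the tumors and 3.56 in the neurospheres, all below the array medians. With the drugs, 0 of the 41 were called in each of the 5 comparisons, where at most 0.076% of all genes were called.

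Across the 26 arrays, after the mean of each code was taken away, Odc1 followed Sms 1434190_PM_at (Pearson r = 0.71) and Srm (0.63). With the other Sms probe sets, Odc1 had r = 0.58 (1421052_PM_a_at) and 0.40 (1428699_PM_at). Srm and Smox ran in opposite directions (-0.60), and Odc1 and Smox less so (-0.36). The genes most like Odc1 were Rab25 (r = 0.96), Rgs5 (0.94), Lgals3 (0.94), Mfap4 (0.94) and Ppp2r5c (0.93). Rgs5 is on the pericyte marker list and read 3.22 to 3.82 on the dka Group3 neurospheres and 8.43 to 10.75 on the primary tumors. Those most like Sat1 were Tmem87a (0.87), Acsl5 (0.86), Gsn (0.85), Timp2 (0.84) and S100a11 (0.83). These values describe arrays that share groups, amplification and normalization.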

How the data were processed

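The values analysed were the deposited log2 intensities, with no further normalization. The authors made them with RMA (version not given in the sources used here) and Partek 6.6, per the submitters' processing notes. Per the labels' protocols, RNA was extracted with Trizol, amplified with NuGEN Ovation Pico WTA V2 and labelled with NuGEN Encore Biotin. Whether the arrays of both title codes were normalized together is not given in the sources used here. Of 45141 rows, 104 controls were left out. Of the rest, 28898 probe sets had 1 gene symbol, 551 had several and 15588 had none, and the gene table changed 0 symbols.

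A single limma fit (limma 3.58.1, R 4.3.3) covered 45037 probe sets and all 26 arrays, and it gave every group its own mean within a title code, 9 means in all. There were 12 comparisons, adjusted by Benjamini-Hochberg over all probe sets, with a threshold of 0.05. Groups are small, and the number of arrays limits the precision. Replicate numbers follow deposit order.

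The pathway genes, the marker lists and the 10 members were chosen with earlier results of these data known. Genes named were all members, up to 2 of each pathway list with the largest change past the threshold, Myc, Mycn, and the 5 genes most correlated with Odc1 and with Sat1. Otx2, from the Group 3 list, was named after its values were seen.

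The fit was tested on simulated arrays of 45037 probe sets. In each comparison 67 of them were changed 1.5-fold, 67 were changed 2-fold and 66 were changed 4-fold. Of those changed 2-fold, 46.3% were found between the neurosphere groups and 52.2% between primary tumors and Group3 neurospheres. On the real arrays, 20.1% and 13.8% of all probe sets were called in these comparisons, a far larger part than was changed here. Benjamini-Hochberg adjustment is stricter when fewer probe sets change, so this simulation does not give the power of those real comparisons. Alternatives were 1 probe set per gene, only arrays of 1 title code, quantile normalization, a filter on dim probe sets, other variance settings, and leaving out arrays. Figures used matplotlib 3.10.9.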

Additional observations from a re-analysis of the deposited data

Results flagged for a closer look

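Antizyme inhibitor Azin1, read by probe set 1422702_PM_at, was 8.25 on Group3 neurosphere replicate 4. The other 6 Group3 neurosphere arrays read 8.63 to 8.82, so this array stood far below them. Of 33 sets of 4 or more arrays examined, 1 held such an array. Chance gives about 1 in 20.

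Spermine oxidase Smox differed between the title codes in its change from Group3 neurospheres to tumors, by 2.85 in log2 units, with an SE of 0.80 and an adjusted p of 0.0397 (limma). The difference was 0.67 under mmm and -2.18 under dka. It did not stay past the threshold when 1 array was left out, except without Group3 neurosphere replicate 4, 5 or 6. The SE and p are uncertain because the neurosphere means under the codes were not independent. Log2 values under the codes may also not share a scale.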

How the results depend on the processing

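Single probe sets gave 1392 values under the alternatives. Of these, 1336 kept their side of the threshold, 49 lost a call and 7 gained one, and no called value reversed. The 1336 include uncalled values that changed sign. Sat1 in primary tumors against Group3 neurospheres was -0.17, and it ran from -0.54 to 0.23 when 1 array was left out. Leaving out 1 array accounted for 41 of the losses and 2 of the gains, and fitting only the arrays of 1 title code for 6 and 3. With 1 probe set per gene or with an intensity trend and robust variances no call changed.

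Counts of member probe sets called that moved by over 1.5 times were these. Between secondary and primary tumors the count of 0 became 1 (Smox) with only dka arrays. Between untreated tumors and Group3 neurospheres the count of 2 became 1 with 1 probe set per gene, with only mmm arrays, after quantile normalization and without dim probe sets. The first and last of these leave out Azin1 1430984_PM_at. In the other settings the call of this probe set was lost (limma adjusted p = 0.0936 with only mmm arrays and 0.0594 after quantile normalization). Why it was lost there was not tested. Smaller shifts were 6 to 4 for primary tumors and 5 to 4 for secondary tumors against Group3 neurospheres, each with only dka arrays and with 1 probe set per gene. With 1 probe set per gene, 7 member probe sets remained and no call among them changed. The lower counts there came from the probe sets left out. After quantile normalization the count went from 5 to 6 for secondary tumors against Group3 neurospheres and from 4 to 3 for primary tumors against Trp53 Cdkn2c neurospheres. Without dim probe sets it went from 3 to 4 between the neurosphere groups.

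Leaving out 1 array, the count ran from 1 to 4 between the neurosphere groups, 3 to 6 for primary tumors against Group3 neurospheres, 2 to 4 against Trp53 Cdkn2c neurospheres, 3 to 5 for secondary tumors against Group3 neurospheres, 1 to 2 for untreated tumors and 0 to 1 for the difference between the codes. It was 0 throughout for secondary against primary tumors and the 5 drug comparisons. No paired analysis was possible because the labels give no replicate numbers, and the numbers used here follow deposit order. Groups of 2 to 4 arrays limit the precision.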
